A study of Mus musculus with 3 samples.

Results

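T, B and NK lymphocyte markers were examined as 9 genes on the microarrays of cells from mouse epididymal fat. The genes are Cd3d, Cd3e, Cd3g and Cd2 for T cells, Cd79a, Cd79b and Ms4a1 for B cells, Il7r, and Nkg7. The rule takes them by name, and they were read at the 14 probes of 60 bases that carry these names, among 37073 named genes and 56605 probes. The Cd3 chains carry the signal of the T cell receptor into the cell, and CD2 is an adhesion receptor that binds CD48 in mice. CD79A and CD79B do the same service for the B cell receptor, and Ms4a1 encodes CD20 of the B cell surface. Il7r encodes the IL-7 receptor alpha chain, which early B cells and most T cells need for survival, and Nkg7 encodes a granule protein of NK cells and cytotoxic T cells. Lymphocytes of these classes reside in visceral fat and also circulate in its blood vessels.

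The cells were obtained from male C57/BL mice aged 20 weeks, with no genetic change or drug named in the records. Fat was digested with collagenase and spun at 9 g for 1 s, and the cells below were the stromal vascular cells (SVC). A spin of the floating cells at 226 g for 3 min gave mature adipocytes (MA) on top and small proliferative adipocytes (SPA) as the sediment. SVC and SPA were grown in DMEM and harvested at 90% confluence, whereas no culture is described for MA. The sample titles give SVC and SPA 1 date and MA another, so fraction, culture and date cannot be told apart in the comparisons with MA. Each group is 1 array, hybridized with Cy3-labeled cRNA from a start of 50 ng RNA, and the records do not state how many mice gave each sample. No difference therefore has a replicate check and no test was run. With 3 arrays in all, their number limits the precision. In these bulk samples, fewer cells of a type and less RNA per cell cannot be told apart.

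The arrays were of similar quality, with 58.6 to 61.4% of the 59305 positions that are not controls well above background, and 0 saturated. Probes spotted repeatedly within an array, and well above background at every spot, had a median SD of 0.04 to 0.05 on the log2 scale. These were 292 to 297 probes per array, and dimmer probes are not covered by that value. Values below are the processed signal of Agilent Feature Extraction, with the error that this software gives for the spot after ±. That error covers the reading of 1 spot, and not animals or cultures. Ratios between groups were taken after the signal of each array was divided by its 75th percentile, which was 430.4 in SVC, 439.1 in SPA and 365.8 in MA. Where a probe was not well above background, the ratio is a bound, taken against its own signal or against the dimmest signal still called well above background on the same array, whichever was higher. This dimmest signal was 13.9 in SVC, 12.5 in SPA and 10.3 in MA. A difference of at least 5-fold is called higher or lower, as in the methods of the study. Of the markers that define the fractions, Adipoq, which encodes adiponectin, had a signal of 10.5 in SVC, not well above background, 1299 in SPA and 127361 in MA.

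The probes matter here because 5 of the genes have a pair of them, and some pairs differ. The following stretches of 30 bases, copied from the array files and written 5′ to 3′, belong to most of the probes whose readings decide a result, with AATAAA, the common polyadenylation signal, in capitals. The hexamer was searched on the strand of the probe.
Cd3d probe 1: ctgtgatcaaccAATAAAgacgtttccttc
Cd3e probe 1: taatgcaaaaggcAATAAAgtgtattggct
Cd2 probes 1 and 2: ttcgtcatttccAATAAAaagctgtgtgga
Ms4a1 probe 1: ccgctatgcctggagaggatggggaggtgg
Ms4a1 probe 2: cagaaatgtaatgggttcccagatctcaaa
Il7r probe 1: tgaaggacaaagtacatttatgggtgtggc
Il7r probe 2: tcaatcacgttcacaaaataagtatcatct
Nkg7: cagcagggtcatcaggatgtttggagcctg
The hexamer was present in 4 of the 14 probes and in 9.77% of all array probes. Both Cd2 probes share a stretch of 51 bases, so that they read the same end of the transcript and do not check each other independently. The other pairs share no stretch longer than 6 bases. No probe of another gene on the array shares 20 bases with any of the 14 probes, on either strand. Of the 14 probes, 11 carry a RefSeq transcript of the gene they are named for, and 0 probes of another name carry one.

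The array annotation places the probes on the mm9 build. Cd3d probe 1 lies at chr9:44794452-44794511 on the plus strand, and the Cd3e probes lie at chr9:44806828-44806887 and chr9:44807254-44807313 on the minus strand of the same gene cluster, which also holds Cd3g at chr9:44777868-44777927. The Il7r probes lie at chr15:9436822-9436881 and chr15:9442570-9442629, and those of Ms4a1 at chr19:11324334-11324393 and chr19:11325409-11325468, all on the minus strand. Probe 1 of Cd2 lies at chr3:101079831-101079890 on the minus strand, and Nkg7 was read at chr7:50693482-50693541 on the plus strand. Cd3d probe 2 and the Cd79a probe map to more genome than their own length, 232 bases at chr9:44794171-44794402 and 258 bases at chr7:25684357-25684614, so each crosses a splice junction. Both are printed whole because they read spliced RNA.
Cd3d probe 2: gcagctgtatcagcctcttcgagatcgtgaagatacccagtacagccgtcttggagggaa
Cd79a: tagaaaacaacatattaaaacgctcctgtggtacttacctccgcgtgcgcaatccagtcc

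The members did not move as a block. In MA, 8 of the 9 genes were well above background, against 5 in SVC and 4 in SPA, whereas 57.0 to 60.4% of all genes were so on each array. By the laxer flag for a signal significantly above background, the counts were 9, 8 and 8. No share over all genes is given for that flag, so these counts cannot be weighed against a background. Cd2, Cd3g and Nkg7 were well above background in MA alone, a pattern shown by 1525 of all 37073 genes (4.11%). Of the 8 members that could be read against SPA, 4 were at least 5-fold higher in MA, which were Cd3d, Cd2, Cd79b and Nkg7. Il7r was at least 5-fold lower. Over all genes, 5.49% of 23956 were higher and 3.98% lower by that limit. Against SVC, 3 of 8 members were higher in MA, which were Cd3d, Cd2 and Nkg7, and Il7r was again lower, where 5.74% of 23453 genes were higher and 3.97% lower. Between the cultured fractions, 0 of 5 members read were higher and 0 lower in SPA, beside 0.322% and 0.353% of 22663 genes. Cd3g, Cd2 and Nkg7 were readable only through MA in both comparisons with it, and Cd79b was so against SPA. Such bounds cannot come out lower in MA, so these counts lean towards higher. Where both groups had to be well above background, only Cd3d, Cd3e, Ms4a1 and Il7r could be read, with Cd79b added against SVC. Among these, Cd3d alone was higher and Il7r alone lower. No share over all genes is given for that filter. Both comparisons with MA share the MA array, so they are not separate evidence.

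**Figure D1:**
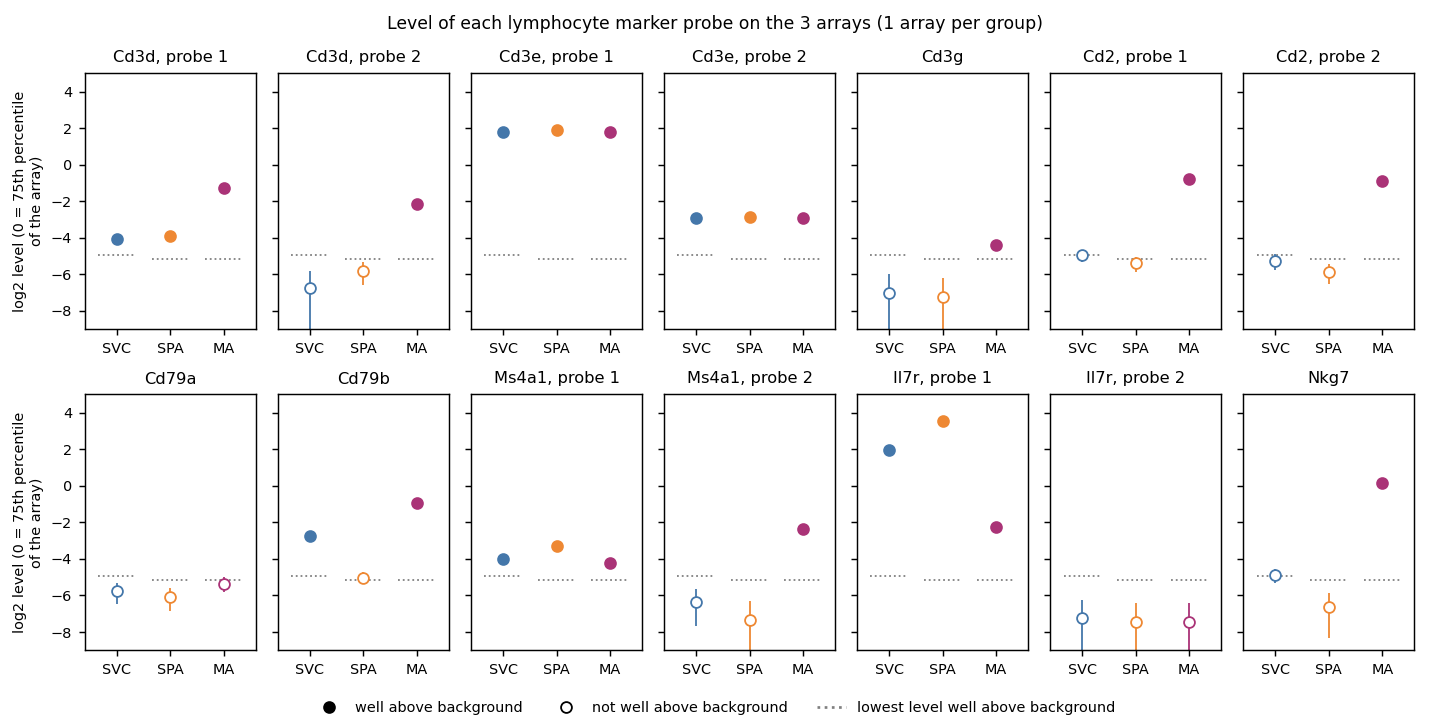
Level of each of the 14 probes in SVC, SPA and MA, on a log2 scale where 0 is the 75th percentile of the array, with the error of the spot as bars where it exceeds the point. Filled points are well above background, open points are not, and bars that reach the bottom edge run on below it. The 4 probes of Cd2 and Cd3d, and those of Cd79b and Nkg7, are highest in MA, while Il7r probe 1 is lowest there and both Cd3e probes are level.

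The T cell genes Cd3d and Cd2 were higher in MA, whereas Cd3e was level. Cd3d probe 1 gave 26.0 ± 4.19 in SVC, 29.6 ± 4.10 in SPA and 152 ± 15.4 in MA. SVC and SPA were close and MA stood above both, with log2 ratios of 2.78 ± 0.27 over SVC and 2.62 ± 0.25 over SPA, which are 6.88-fold and 6.16-fold. Cd3d probe 2, over the splice junction, gave signals of 3.96 in SVC and 7.87 in SPA, neither well above background, and 83.5 ± 8.77 in MA. MA was at least 7.07-fold higher than SVC and at least 8.03-fold higher than SPA at that probe, so that the pair of Cd3d probes gave the same direction.

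Cd2 had the largest bounds for MA among the T cell members. Its probe 1 gave 13.9 in SVC and 10.4 in SPA, both below the call of well above background, and 213 ± 21.4 in MA. MA was at least 18.0-fold higher than SVC and at least 20.5-fold higher than SPA. In SVC and SPA the software flagged the surroundings of this spot as outlying background. At probe 2, which had no such flag, MA was at least 16.9-fold and 19.2-fold higher.

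Each Cd3e probe had a similar level on all arrays, but probe 1 was far brighter than probe 2 on every array. Probe 1 gave 1462 ± 146 in SVC, 1607 ± 161 in SPA and 1265 ± 127 in MA, and the log2 ratio of MA over SVC was 0.03 ± 0.20. Probe 2 gave 58.0 ± 6.50, 59.3 ± 6.47 and 48.6 ± 5.31, with a log2 ratio of -0.02 ± 0.23. The ratios of Cd3e therefore set no fraction apart, unlike those of its neighbour Cd3d, although both chains belong to the same complex. How bright Cd3e reads beside other members depends on the probe, and the reason was not tested. Cd3g was dim, with signals of 3.37 in SVC and 2.94 in SPA, not well above background, and 17.4 ± 3.03 in MA. Because MA itself was near the lowest readable signal, Cd3g can be called only at least 1.48-fold higher than in SVC and at least 1.68-fold higher than in SPA, below the 5-fold limit.

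Cd79b was the B cell member with the largest bound for MA over SPA. It gave 63.5 ± 7.09 in SVC, 13.5 in SPA, not well above background, and 192 ± 19.3 in MA. The order was SPA lowest, SVC between and MA highest. MA was at least 17.1-fold higher than SPA and 3.56-fold higher than SVC, the latter a log2 ratio of 1.83 ± 0.22 and under the limit. SPA was at least 4.79-fold lower than SVC. This bound fell just short of the limit, so no call was made, though the difference may be larger. Cd79a, the partner of CD79B in every B cell receptor, gave 7.89, 6.51 and 8.99 in SVC, SPA and MA and was well above background on none of these arrays, so no ratio is given for it.

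The probes of Ms4a1 disagreed. Probe 1 was well above background on all arrays, with 26.4 ± 4.22 in SVC, 45.6 ± 5.38 in SPA and 19.4 ± 3.12 in MA, and MA over SVC was a log2 ratio of -0.21 ± 0.33. Its SPA spot had an outlying local background. Of the positions around that spot that SVC did not read well above background, SPA did so for 27.6%, against 9.77% over the whole array, and the part of this in the SPA reading was not tested. Probe 2, which carries the RefSeq transcript of Ms4a1, gave 5.32 in SVC and 2.74 in SPA, neither well above background, and 71.4 ± 7.50 in MA. At probe 2 MA was at least 6.05-fold higher than SVC and at least 6.87-fold higher than SPA, the direction of Cd79b. The counts above read Ms4a1 at probe 1, which has the higher mean level.

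Nkg7 had the largest bound among the members. Its signal was 14.7 in SVC and 4.39 in SPA, not well above background in either, and 403 ± 40.4 in MA. MA was at least 32.3-fold higher than SVC and at least 38.7-fold higher than SPA. The SPA spot of Nkg7 had an outlying local background, and of the positions around it that SVC did not read well above background, SPA did so for 36.7%. The comparison with SVC does not use that spot.

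Il7r ran against the members that were higher in MA. Probe 1 gave 1650.4 ± 165 in SVC, 5209 ± 521 in SPA and 75.7 ± 7.88 in MA, so that SPA was highest and MA lowest. The log2 ratio was 1.63 ± 0.20 for SPA over SVC, a 3.09-fold difference under the limit. MA over SPA was -5.84 ± 0.21 and MA over SVC was -4.21 ± 0.21, which are 57.3-fold and 18.5-fold lower in MA. Probe 2 of Il7r, annotated to a cDNA clone and lying away from probe 1, gave signals of 2.87, 2.55 and 2.12 and was well above background on none of these arrays. The pattern of Il7r thus rests on 1 probe.

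**Figure D2:**
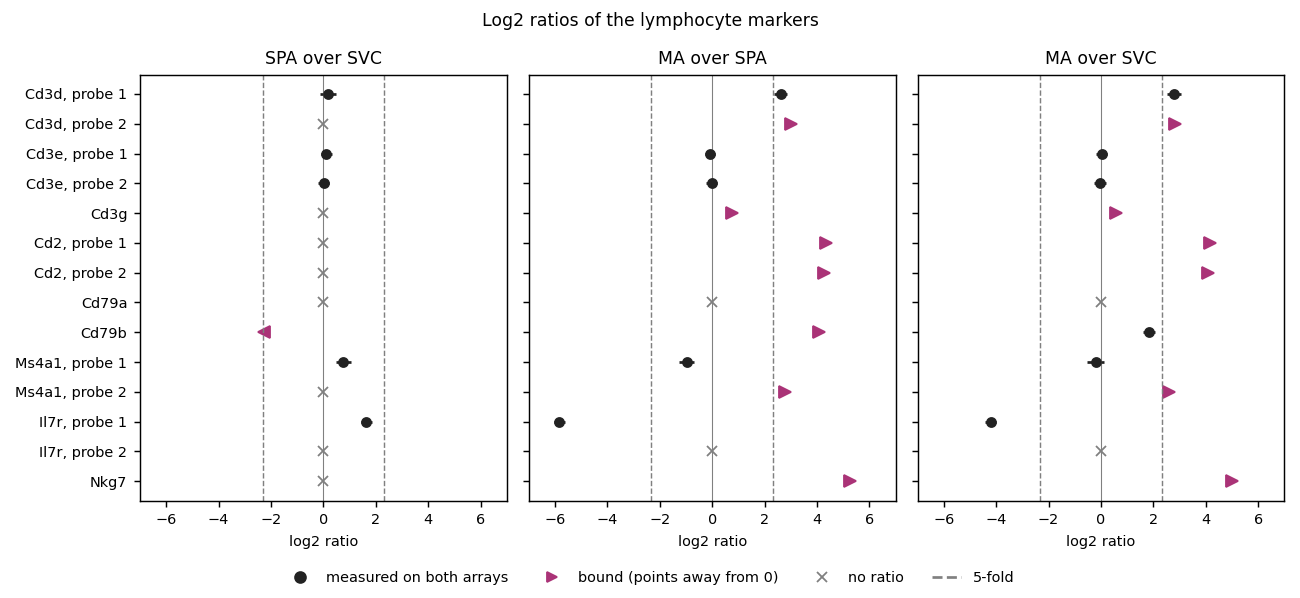
Log2 ratios of the 14 probes for SPA over SVC, MA over SPA and MA over SVC. Circles were measured on both arrays and carry the propagated error of the spots, triangles are bounds, crosses set at 0 mark probes without a ratio, and dashed lines are 5-fold. Il7r probe 1 lies left of the 5-fold line in both comparisons with MA, at -5.84 and -4.21, where Nkg7 lies at bounds of 5.28 and 5.01.

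The direction of the members can be set beside further genes of each cell class, which were read from lists. All 24 T cell genes listed were on the arrays, 17 of them well above background in MA, 12 in SVC and 14 in SPA. Of the 18 with a ratio of MA over SVC, 3 were at least 5-fold higher and 1 lower, and 7 of these ratios were bounds. The other 11, read in both groups, had a median log2 ratio of 0.48, beside -0.07 over all 20065 genes read in both. For this list and those below, the shares over all genes were 57.0 to 60.4% well above background on each array. For MA over SVC they were 5.74% at least 5-fold higher and 3.97% lower. Zap70, the kinase recruited to the Cd3 chains, had signals of 13.9 in SVC, not well above background, 17.5 in SPA and 105 in MA, at least 8.88-fold higher in MA than in SVC. The costimulator Icos was well above background in MA alone and was at least 5.69-fold higher there than in SVC. Lat, the adaptor that Zap70 phosphorylates, went the other way, with signals of 263 in SVC, 773 in SPA and 28.2 in MA, 7.93-fold lower in MA than in SVC. Cd28, another costimulator, was 2.70-fold lower in MA than in SVC. Neither Ctla4, Sh2d1a, Themis, Cd96 nor Trat1 was well above background on any of these arrays.

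Of the 21 B cell genes listed, 19 were read, and none carried the names Ighm or Ighd. Well above background were 15 in MA, 9 in SVC and 11 in SPA. MA over SVC gave 3 higher and 2 lower of 15, of which 6 were bounds, and the other 9, read in both groups, had a median log2 ratio of 0.29. Jchain, the joining chain of secreted antibody, had signals of 4.20 in SVC, 2.61 in SPA and 155 in MA, and was at least 13.1-fold higher in MA than in SVC. The transcription factor Spib was at least 5.28-fold higher. Cd72, a B cell inhibitory receptor that some myeloid cells also express, was 5.15-fold lower in MA than in SVC. Siglecg, an inhibitory lectin of B cells, was 7.20-fold lower.

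The NK and cytotoxic list had the widest gap in what could be read. Of its 19 genes, 16 were well above background in MA, 3 in SVC and 4 in SPA, and 12 were so in MA alone. MA over SVC gave 7 higher and 0 lower of 16, but 13 of the ratios were bounds of genes readable only through MA, which cannot come out lower. The other 3, read in both groups, had a median log2 ratio of 0.17. Gzma, which encodes granzyme A, gave 8.90 in SVC, 11.9 in SPA and 1521 in MA, at least 129-fold higher in MA than in SVC. Il2rb, the receptor chain shared by IL-2 and IL-15, was at least 12.3-fold higher. Ccl5, a chemokine stored by cytotoxic lymphocytes and also made by other cells, was measured on all arrays, with 258 in SVC, 114 in SPA and 2710 in MA, and was 12.4-fold higher in MA than in SVC. Prf1, which encodes perforin, was level, with signals of 224 in SVC, 226 in SPA and 159 in MA. Ctsw, a protease of cytotoxic cells, had 99.8 in SVC, 60.9 in SPA and 95.5 in MA, 1.88-fold higher in MA than in SPA and 1.13-fold higher in MA than in SVC on the scaled levels. Eomes, a transcription factor of NK cells, had 20.6 in SPA and 29.6 in MA and was at least 2.14-fold higher in MA than in SVC, where it was not well above background.

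**Figure D3:**
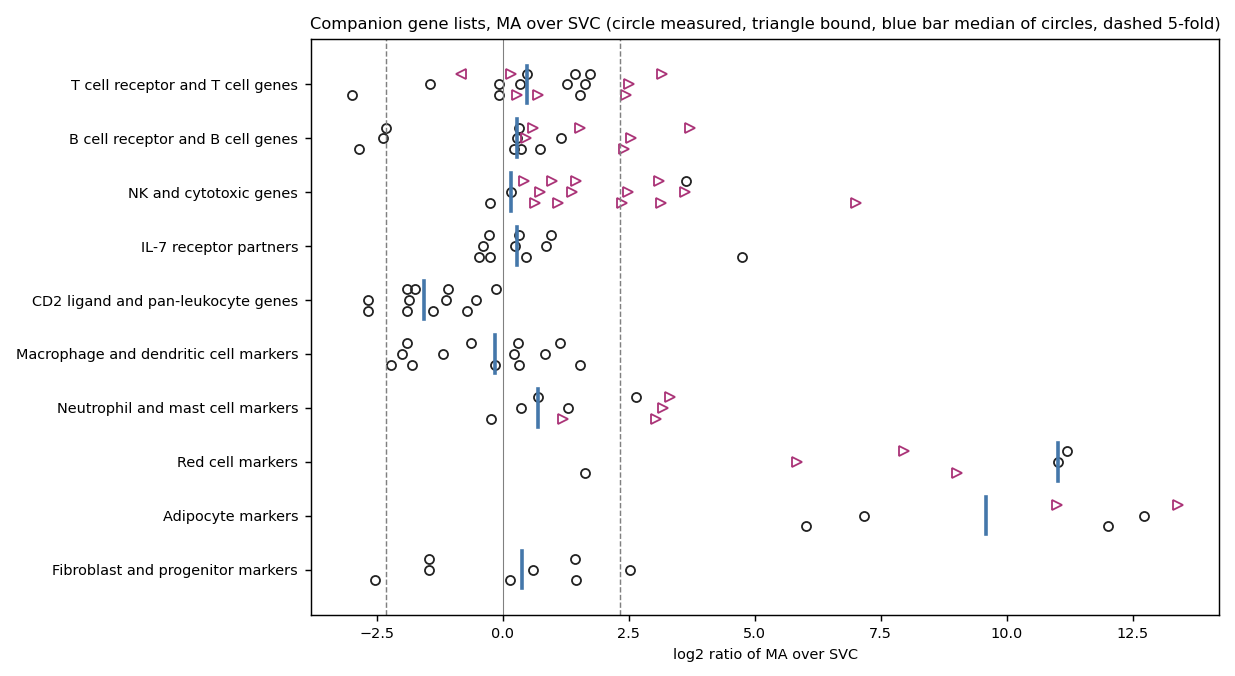
Log2 ratio of MA over SVC for every gene of the 10 lists that has one, with circles measured on both arrays, triangles as bounds, blue bars as medians of the circles and dashed lines at 5-fold. NK and cytotoxic genes are mostly bounds, 13 of 16, and their 3 measured genes have a median of 0.17. Pan-leukocyte genes lie left of 0, and the red cell and adipocyte genes lie farthest right.

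Il7r was also set beside the other genes of its pathway. IL-7 binds Il7r together with the common gamma chain Il2rg, which signals through Jak1, Jak3 and Stat5, and TSLP binds Il7r together with Crlf2. Of the 11 genes listed, SPA had all 11 well above background and SVC and MA had 10 each. Il7 itself was well above background in SPA alone, with signals of 11.5 in SVC, 53.8 in SPA and 3.09 in MA. SPA exceeded SVC at least 3.79-fold and MA at least 4.34-fold, so that ligand and receptor were both read highest in SPA. Tslp gave 68.9 in SVC, 16.8 in SPA and 44.9 in MA, lowest in SPA. Crlf2 was 1.39-fold lower in MA than in SVC, with 5678 in SVC, 8817 in SPA and 3463 in MA. Stat5b and the survival gene Bcl2 were 1.81-fold and 1.95-fold higher in MA than in SVC. Cish, a feedback inhibitor induced by Stat5, was the 1 gene of this list past the limit, with 125 in SVC, 85.2 in SPA and 2836 in MA, 26.7-fold higher in MA than in SVC.

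**Figure D4:**
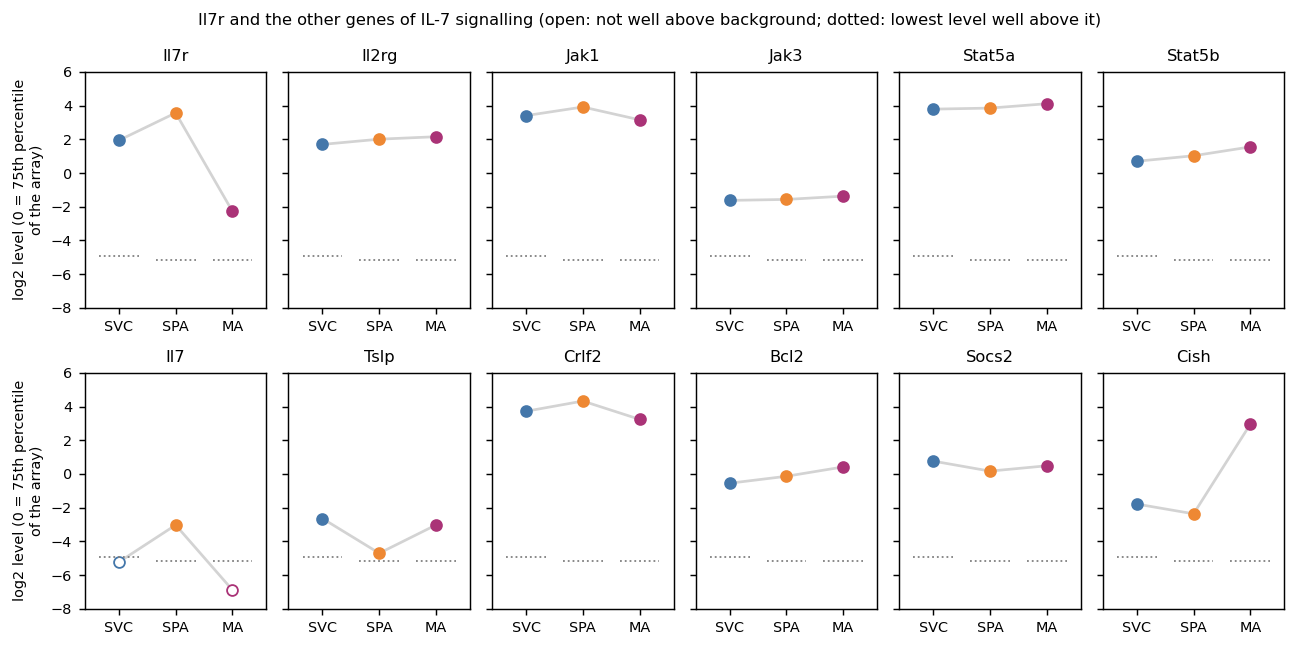
Levels of Il7r probe 1 and of the 11 other genes of IL-7 and TSLP signalling in SVC, SPA and MA, on a log2 scale where 0 is the 75th percentile of the array, with filled points well above background. Il7r is highest in SPA and lowest in MA, Il7 is well above background in SPA alone, Cish is highest in MA, and Il2rg, Jak3 and Stat5a are nearly level.

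Genes with a pattern like that of a member were sought among the 19864 other genes well above background on all arrays, by the distance between levels centred on their mean over the 3 arrays. The likeness is a description over 3 points. Ass1, Clec4d and Uchl1 were nearest to Il7r, at log2 distances of 0.28, 0.28 and 0.31, and 5 genes in all lay within 0.5. Clec4d, a C-type lectin of myeloid cells, had log2 levels of 4.55 in SVC, 5.85 in SPA and -0.02 in MA. The level pattern of Cd3e was common, with 8412 genes within 0.5 and Clk3, 4930505M18Rik and 9430013L14Rik nearest. For Cd3d, 411 genes lay within 0.5 and the nearest were 5031434O11Rik, 1600014C10Rik and Gm20492. For Ms4a1 probe 1, 2326 genes lay within 0.5, and Efcab9 and Rusc2 were the nearest with a gene name.

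Promoters of 6 members are in the RefSeq table for GRCm38.p6, a build other than that of the probes. Those of Cd3d, Cd3e and Il7r are printed because these genes showed 3 different patterns, each as 300 bases with the start site inside the window. Capitals mark TGTGGT, the core that RUNX factors bind, and CAGGTG, an E-box, on either strand, and CCGGAA, an ETS core, was also searched.
Cd3d, chr9:44981536-44981835, plus strand: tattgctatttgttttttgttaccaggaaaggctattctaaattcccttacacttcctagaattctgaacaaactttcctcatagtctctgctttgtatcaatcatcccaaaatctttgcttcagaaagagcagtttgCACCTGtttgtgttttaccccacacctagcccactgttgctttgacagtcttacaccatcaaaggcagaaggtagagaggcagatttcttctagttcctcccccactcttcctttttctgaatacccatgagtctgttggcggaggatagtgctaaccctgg
Cd3e, chr9:45009562-45009861, minus strand: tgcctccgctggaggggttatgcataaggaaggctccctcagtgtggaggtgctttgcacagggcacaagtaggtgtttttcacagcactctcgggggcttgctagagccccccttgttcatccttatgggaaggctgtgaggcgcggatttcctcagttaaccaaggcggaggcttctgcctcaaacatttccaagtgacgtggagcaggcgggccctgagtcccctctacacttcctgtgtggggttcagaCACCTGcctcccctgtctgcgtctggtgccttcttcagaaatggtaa
Il7r, chr15:9529827-9530126, minus strand: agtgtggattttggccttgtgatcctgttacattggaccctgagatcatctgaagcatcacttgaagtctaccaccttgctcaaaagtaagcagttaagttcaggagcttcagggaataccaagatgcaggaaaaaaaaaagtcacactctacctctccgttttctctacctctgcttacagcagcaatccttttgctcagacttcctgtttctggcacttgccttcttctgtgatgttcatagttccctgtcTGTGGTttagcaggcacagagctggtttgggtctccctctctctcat
CAGGTG was found in 4 of the 6 windows, those of Cd3d, Cd3e, Cd3g and Cd79a, and in 20.2% of all 32851 promoter windows. TGTGGT was found in 2, those of Il7r and Nkg7, and in 16.8% of all windows. CCGGAA was found in 0 of the 6 and in 14.9% of all. Cd3d and Cd3e each held 1 CAGGTG. Any part of these motifs in the readings was not tested.

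Markers of other cells were read on the same arrays and had no common direction. The pan-leukocyte genes were well above background on all arrays, 12 of 12, and had a median log2 ratio of -1.57 for MA over SVC, with 2 at least 5-fold lower. Ptprc, the leukocyte marker CD45, was close to level with 1546 in SVC, 1651 in SPA and 1195 in MA. Rac2 and Lcp1, expressed in most leukocytes, were 6.33-fold and 6.35-fold lower in MA than in SVC. Ikzf1 and Itgal were 1.44-fold and 1.64-fold lower. All 13 macrophage and dendritic cell genes were well above background on all arrays, and their median log2 ratio for MA over SVC was -0.15. Cd68 and Itgax were 4.67-fold and 4.01-fold lower in MA than in SVC, and C1qb, C1qc and Cd209a were 2.19-fold, 1.79-fold and 2.89-fold higher. The mean log2 level of the macrophage list was 2.33 in SVC, 1.68 in SPA and 1.90 in MA.

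Of the 6 red cell markers, 5 were at least 5-fold higher in MA than in SVC. Hba-a1, an alpha globin, gave 69.4 in SVC, 76.8 in SPA and 121929 in MA, 2066-fold higher in MA than in SVC, and Hba-a2 was 2347-fold higher. Hbb-b2 was at least 513-fold higher and Alas2 at least 57.2-fold. The mean log2 level of the 6 red cell genes was -3.94 in SVC, -3.54 in SPA and 3.84 in MA. In these means, a gene not well above background was set no lower than the dimmest level so called on that array. Of the neutrophil and mast cell genes, 9 of 10 were well above background in MA, 5 in SVC and 4 in SPA. Retnlg of neutrophils and Cma1 and Mcpt4 of mast cells were at least 9.99-fold, 9.11-fold and 8.19-fold higher in MA than in SVC. S100a9, S100a8, Tpsb2 and Csf3r were 6.21-fold, 2.47-fold, 1.63-fold and 1.28-fold higher, and Ly6g was 1.17-fold lower. Of the 6 adipocyte genes all were at least 5-fold higher in MA than in SVC, among them Cidec at 6735-fold, Retn at 4106-fold, Fabp4 at 143-fold and Lipe at 64.9-fold. Of the 8 fibroblast and progenitor genes, Pi16 was 5.72-fold higher and Pdgfra 5.76-fold lower in MA than in SVC, while Col1a1 was 2.77-fold lower, Col3a1 2.71-fold higher and Dcn 2.75-fold higher. The part of blood cells, other leukocytes and adipocytes in the readings of the lymphocyte markers was not tested.

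Choices of processing bear on these calls. With the normexp correction, which adds an offset of 50 to every signal, Nkg7 alone was at least 5-fold higher in MA, and Cd3d, Cd2 and Cd79b were under the limit. When bounds were left out, so that a probe had to be well above background in both groups, fewer members could be read. Of these, Cd3d alone was higher in MA. The call of Il7r held under both choices, and no share over all genes is given for either.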

How the data were processed

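RNA of SVC, SPA and MA was read on 1 Agilent 1-colour mouse array each, on 1 slide and in 1 scan. The authors deposited the intensity of every spot from Agilent Feature Extraction 10.7.3.1, background-subtracted and detrended within the array, and a series table whose values are the ratio of this processed signal to 1 constant per array, to a relative departure of 1.37e-06. The authors used GeneSpring and a 5-fold rule.

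From there, control spots and outlier spots (75 in SVC, 98 in SPA and 129 in MA) were left out, spots of a probe were averaged, and log2 of the deposited signal minus log2 of the 75th percentile of the array was taken as the level. Where a gene has several probes, the one with the highest mean over the arrays stands for it. The local background was outlying for 3.21% of the positions in SVC, 5.01% in SPA and 1.85% in MA. A call needed a ratio, or bound, of at least 5-fold with the brighter array well above background. Members and lists were chosen with earlier results of these data known. Named genes are all members, of each list the 3 largest and 2 smallest ratios of MA over SVC and every gene readable in SVC or SPA where these are 5 or fewer, and the 3 genes nearest to each member read on all arrays. Alternatives were 9 settings of scaling, background, filter and probe choice, fold limits of 3 and 2, and another detection flag. The calls were tested on simulated data. The genes changed in it were all well above background in SVC, so genes unreadable there and raised elsewhere were not covered. The work used limma 3.58.1 in R 4.3.3 for normexp, and otherwise Python 3.11.15 (pandas 2.3.3, numpy 2.4.6, matplotlib 3.10.9). Some items that the rule names are not reported here. Promoters are from RefSeq, GRCm38.p6.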

Additional observations from a re-analysis of the deposited data

How the results depend on the processing

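The direction of every call among the lymphocyte markers held under all 9 alternative settings that gave it a value, and none reversed. Il7r was at least 5-fold lower in MA in each of them, with log2 ratios from -5.84 to -5.12 over SPA and from -4.24 to -3.55 over SVC. Members at least 5-fold higher in MA than in SPA were 1 under the normexp correction (Nkg7) and 1 among probes well above background on both arrays (Cd3d), against 4, and the same settings gave 1 and 1 against 3 for MA over SVC, with the same genes. Without a filter on dim probes the counts were 5 and 4, with Cd3g added, and with the probe of the largest ratio 5 and 4, with Ms4a1 added. With spots of outlying local background left out, the count over SPA stayed at 4 but Ms4a1, then read at probe 2, took the place of Nkg7, whose SPA value was lost. In SPA over SVC, quantile normalization brought Cd79b past the limit, giving 1 member lower, and fold limits of 3 and 2 each gave 1 member higher (Il7r) and 1 lower (Cd79b). Members well above background were 2 in SVC, 1 in SPA and 7 in MA by the median of the probes. With spots of outlying local background left out, SPA had 3. When a signal significantly above background sufficed, there were 8 in SVC, 8 in SPA and 9 in MA. No share over all genes is given for these alternative counts. Of the single log2 ratios under these settings, 47 moved by more than 0.066, the within-array spread of probes well above background, and 132 did not. Not all of these could move. Requiring both groups well above background leaves a measured ratio as it is, so 0 of its 13 ratios moved. The normexp correction moved 18 of 21. The offset adds 50 to each signal and so shrinks ratios of dim probes, and the filter removes bounds. Signals near the lowest readable level limit Cd3g, Cd79a and the cultured fractions. No paired analysis was possible because each group has 1 array.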
